A study of Mus musculus with 12 samples.

Results

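Mitochondria carry their own ribosome, the mitoribosome, which translates the small set of messages of the mitochondrial genome. All of these messages encode core subunits of the respiratory chain and of ATP synthase. The RNAs of the mitoribosome come from mitochondrial DNA, but its proteins are encoded in the nucleus, made in the cytosol and imported, and a good part of them have no counterpart in bacterial ribosomes. T lymphocytes that are activated through their antigen receptor grow and divide, and the build-up of mitochondria and of mitochondrial translation is a known component of that growth.

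The genes described here are the mitochondrial ribosomal protein genes, chosen by symbol alone: Mrpl or Mrps followed by a digit. By this rule 83 of the 17203 genes listed were members, 52 with an Mrpl symbol (large subunit) and 31 with an Mrps symbol (small subunit). The symbols of 5 members name pseudogenes. The products of Mrps30 and Mrps18a sit in the large subunit of the mammalian mitoribosome despite their symbols. That of Mrps36 is known as a subunit of the 2-oxoglutarate dehydrogenase complex. All 3 were kept under the subunit of their symbol, except that counts by structural class put Mrps30 and Mrps18a in the large subunit and leave out Mrps36. Levels are in CPM, reads per 1e6 reads assigned to genes. A gene was tested where it reached 10 CPM in at least 3 of the 12 libraries, which 77 members did, 49 of the large and 28 of the small subunit. The 6 members below that level were Mrpl22, Mrpl23, Mrps36, Mrpl27-ps, Mrps36-ps1 and Mrps36-ps2. Mrpl55 reached it only in the 3 CD3 libraries, so it was tested only because it was high there. Mrps10 reached it only in the CD3 libraries and CD3_CD28 replicate 3, and Mrpl53 only in the CD3_CD28 libraries and CD3 replicate 3. Mrpl27 reached it only in CD3_CD28_ICOS and CD3, Mrps28 only in CD3_CD28 and CD3, and Mrpl48 only in stimulated groups. Differences of these genes from the groups below that level are no independent results.

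RNA came from helper (CD4+) T lymphocytes isolated from C57BL/6 mice. The 4 groups held 3 libraries each. CD3_CD28_ICOS cells received antibodies to CD3 (part of the antigen receptor complex), CD28 and ICOS (costimulatory receptors) for 72 hours, all in soluble form. CD3_CD28 cells were held for 72 hours on plate-bound anti-CD3 with soluble anti-CD28, and CD3 cells for 72 hours on plate-bound anti-CD3 alone. Unstimulated cells were freshly isolated and not activated. The form of anti-CD3 and the addition of anti-ICOS therefore cannot be told apart when CD3_CD28_ICOS is set against the other stimulated groups, nor can stimulation and the time in culture when any of them is set against Unstimulated. Set against CD3, CD3_CD28_ICOS also differs by anti-CD28, which cannot be told apart from the form of anti-CD3 and from anti-ICOS. Transduction is mentioned in the series design but in no sample label. No label tells separate mice or cultures apart within a group, so the p-values rest on a spread between libraries that may be technical.

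Libraries of a group correlated with r of 0.968 to 0.993 across genes, and the estimated depth was 11.4 to 37.5 in units of 1e6 reads, so that 1 read was worth 0.0267 to 0.0878 CPM. All 8 CD4 T cell markers looked for were listed, and their summed level was 4691 to 5116 CPM in CD3_CD28_ICOS, 3249 to 3737 in CD3_CD28, 3473 to 4047 in CD3 and 4968 to 5590 in Unstimulated libraries. One ribosomal RNA gene, CT010467.1, took 11.8% of CD3_CD28 replicate 1 and 1.26 to 3.20% of the others. Markers of other cells moved with the groups. The 5 pancreas markers summed to at most 0.299 CPM in CD3_CD28_ICOS, 0.0895 in CD3_CD28 and 0.965 in CD3, against 189 to 1014 CPM in Unstimulated libraries, and the 5 myeloid markers to at most 11.7, 1.81 and 7.35 CPM in the same order of groups, against 118 to 284 CPM. The 5 B cell markers summed to 157 to 451 CPM in CD3_CD28_ICOS, 6.40 to 8.53 in CD3_CD28, 214 to 456 in CD3 and 93.8 to 169 in Unstimulated libraries. Fos, an early response gene, reached 1275 CPM in Unstimulated replicate 3, where replicates 1 and 2 of that group had 70.7 and 30.9 CPM. Counts of genes are given below also without CD3_CD28 replicate 1 and Unstimulated replicate 3, the 2 doubted libraries. The part of the marker levels in the results was not tested. In bulk RNA, fewer cells of a type and less RNA per cell cannot be told apart.

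Summed over its genes, mitoribosomal protein RNA was higher in CD3 and CD3_CD28 cells than in unstimulated cells, and on the CPM scale CD3 cells had most of it. The large subunit genes summed to 1560.0, 1497 and 1448 CPM in the CD3_CD28_ICOS libraries, 1532, 1740 and 1733 in CD3_CD28, 1825, 1832 and 1799 in CD3, and 1259, 1378 and 1239 in Unstimulated. No stimulated library fell within the Unstimulated range, and all 3 CD3 libraries lay above the other 9. Means were 1502 ± 56.1, 1668 ± 118, 1819 ± 17.6 and 1292 ± 74.9 CPM (SD, n = 3 each) in that order of groups, which is 1.16, 1.29 and 1.41 times the Unstimulated mean for the stimulated groups. A single gene, Mrpl45, made up a visible share of this: without it the means were 1408 ± 61.8 in CD3_CD28_ICOS, 1494 ± 114 in CD3_CD28, 1730 ± 13.4 in CD3 and 1266 ± 74.1 CPM in Unstimulated (SD, n = 3 each).

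Small subunit genes followed the same order of group means on the CPM scale. They summed to 802, 710 and 722 CPM in CD3_CD28_ICOS, 743, 805 and 832 in CD3_CD28, 962, 956 and 956 in CD3, and 688, 742 and 683 CPM in Unstimulated libraries. Here the CD3_CD28_ICOS and Unstimulated libraries overlapped, while the CD3 libraries again stood above all others. The small over large ratio of sums was 0.496 ± 0.0202 in CD3_CD28_ICOS, 0.476 ± 0.0116 in CD3_CD28, 0.527 ± 0.00484 in CD3 and 0.546 ± 0.00641 in Unstimulated (SD, n = 3 each). All 9 stimulated libraries lay below the lowest Unstimulated ratio of 0.539. For CD3 this depended on Mrpl45: with that gene left out of the large subunit sum, the CD3 and Unstimulated ratios overlap. The sums are of CPM, which are not corrected for gene length, so the ratio can be read between groups but is no ratio of molecules. Sums over the members were given no test. The rank of CD3 depended on the scaling of the libraries. With median-of-ratios scaling the large subunit sums were 1446 ± 49.9 in CD3_CD28_ICOS, 1776 ± 19.7 in CD3_CD28, 1672 ± 30.1 in CD3 and 1337 ± 54.7 in Unstimulated (SD, n = 3 each), so that all CD3_CD28 libraries were above all CD3 libraries and the lowest CD3_CD28_ICOS library was within the Unstimulated range. The small subunit sums were then 716 ± 36.2 in CD3_CD28_ICOS, 845 ± 12.3 in CD3_CD28, 880.3 ± 10.5 in CD3 and 729.7 ± 25.9 in Unstimulated (SD, n = 3 each), with CD3 still the highest. Mrpl45 is part of the large subunit sums, with means of 174 CPM in CD3_CD28 and 89.4 CPM in CD3 before this scaling. The median-of-ratios sums were not calculated without it, so the rank of CD3_CD28 there may rest on that gene.

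**Figure D1:**
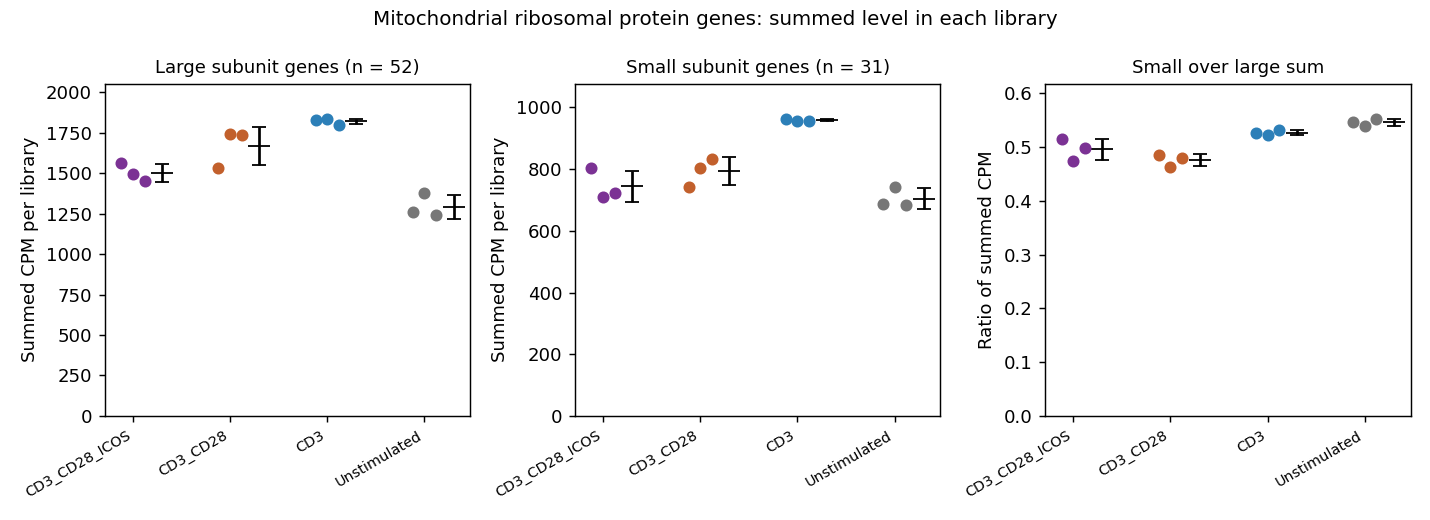
Summed CPM of the large subunit genes (left), of the small subunit genes (middle) and the small over large ratio of the 2 sums (right), 1 point per library, with bars for the mean and SD of each group of 3. On this CPM scale the CD3 libraries are the highest of the 12 in both sums (with median-of-ratios scaling CD3_CD28 is above CD3 in the large subunit sum, Mrpl45 included). All stimulated libraries are below the Unstimulated ones in the ratio, but with Mrpl45 left out of the large subunit sum those of CD3 and Unstimulated overlap.

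Most tested members were higher in CD3 cells than in unstimulated cells on the CPM scale. Of the 77 tested members 54 were higher in CD3 cells and 0 were lower, where among all 9826 genes tested 43.6% were higher and 26.3% lower (limma, Benjamini-Hochberg adjusted p under 0.05, as for every call below). At an unadjusted p under 0.05 the members' counts were 59 and 3. By subunit, 35 of 49 large and 19 of 28 small subunit genes rose. The members' median log2 fold change was 0.44, against 0.18 for all genes tested, a difference of 0.26. Without the 2 doubted libraries 49 members were higher and 2 lower. Under 3 other scalings of the libraries the median of all genes lay between -0.07 and 0.01 and the split of all genes was 31.7% higher and 38.3% lower with quantile normalization, 36.1% and 35.3% with median of ratios, and 35.3% and 36.0% with upper quartile scaling. The members' counts were 26 to 43 higher and 5 to 8 lower, while their median stayed 0.24 to 0.27 above that of all genes.

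CD3_CD28 cells against unstimulated cells showed changes both ways. There 34 members were higher and 15 lower, against 36.1% and 39.1% of all genes tested, and the members' median was 0.18, against -0.04 for all genes. The large subunit had 22 genes higher and 8 lower, the small subunit 12 higher and 7 lower. Without the 2 doubted libraries the counts were 34 and 13. In the small subunit the proteins that have bacterial counterparts and those specific to mitochondria gave different counts: 4 higher and 5 lower of 16 with counterparts, 7 higher and 2 lower of 10 specific ones. Mrps18a and Mrps30 are not in these 2 classes, as their products sit in the large subunit. The difference between these classes was not tested.

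CD3_CD28_ICOS cells against unstimulated cells gave the fewest calls of these 3 comparisons, 23 members higher and 9 lower, where all genes had 35.6% and 23.7%. The members' median and that of all genes were both 0.08, and under the other scalings they differed by at most 0.01. With quantile normalization the members' counts turned to 14 higher and 24 lower (all genes: 27.8% and 35.5%), and with median-of-ratios and upper quartile scaling to 17 higher and 18 lower each. Without the 2 doubted libraries the counts were again 23 and 9. These 3 comparisons share the Unstimulated libraries.

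Among the stimulated groups, the F test over the 9 libraries called 67 of 77 members different (80.7% of all genes tested), 40 of 49 in the large and 27 of 28 in the small subunit. CD3 cells had the highest of the 3 group means for 56 of the 77, CD3_CD28 cells for 16 and CD3_CD28_ICOS cells for 5. The lowest mean lay in CD3_CD28_ICOS cells for 41 genes, in CD3_CD28 cells for 31 and in CD3 cells for 5. Under the 3 other scalings CD3 was highest for 43 to 49 members, CD3_CD28 for 24 to 29 and CD3_CD28_ICOS for 4 to 6, and CD3 was lowest for 8 to 12. On the CPM scale the small subunit gave 20 of 28 genes with the highest mean in CD3 cells and 0 with the lowest there. The highest and lowest group was not counted over all genes tested, so these counts cannot be called particular to the members. On that scale 45.7% of all genes tested were lower and 18.7% higher in CD3_CD28 than in CD3. In CD3_CD28_ICOS against CD3 the shares were 28.7% lower and 18.9% higher.

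CD3_CD28 cells had 8 members higher and 43 lower than CD3 cells, against 18.7% and 45.7% of all genes tested. The members' median was -0.31, against -0.24 for all genes, so the members lay 0.07 below a shift that all genes shared on the CPM scale. Under the other scalings the median of all genes was -0.06 to -0.03, the all-gene split evened out (29.3% higher and 31.6% lower with quantile normalization), and the members gave 13 to 15 higher and 18 to 22 lower. Without the 2 doubted libraries the counts were 9 and 34. On the CPM scale the 8 that rose were all large subunit genes by symbol. Among the 28 small subunit genes 0 rose and 18 fell on that scale, the same counts as at an unadjusted p under 0.05. Counts by subunit are not given for the other scalings.

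CD3_CD28_ICOS cells had 10 members higher and 23 lower than CD3_CD28 cells, against 38.5% and 24.5% of all genes tested. While more genes overall were higher, more members were lower, and the members' median was -0.05, against 0.13 for all genes. This gap of -0.17 was -0.16 to -0.18 under the other scalings, where all genes split 32.8% higher and 31.7% lower (quantile normalization) and members 3 to 6 higher and 30 to 33 lower. Leaving out CD3_CD28_ICOS replicate 1 reduced the genes called higher to 5, and the 2 doubted libraries together to 9 higher and 27 lower. CD3_CD28_ICOS cells against CD3 cells gave 1 member higher and 47 lower, where all genes had 18.9% and 28.7%, with a median of -0.35 for members and -0.07 for all genes. Of the small subunit, 0 of 28 genes were higher and 21 lower (0 and 22 at an unadjusted p under 0.05). Without CD3_CD28_ICOS replicate 3 the lower calls numbered 31, and without the 2 doubted libraries 51. The other scalings left 2 to 3 members higher and 33 to 40 lower, beside all-gene splits of 26.4% and 25.9% with quantile normalization. The comparisons among stimulated groups share libraries pairwise.

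**Figure D2:**
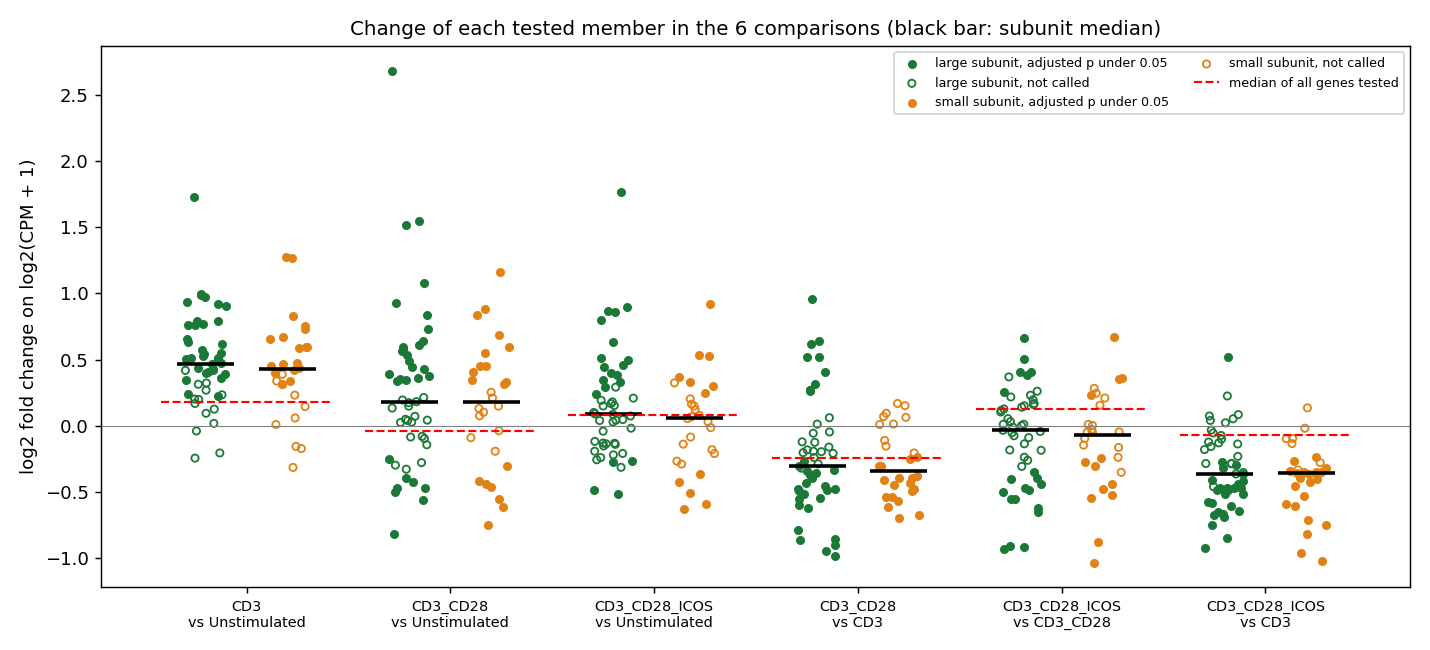
Log2 fold change (log2 of CPM + 1) of each tested member in the 6 comparisons, 49 large and 28 small subunit genes, with filled points for genes called by limma, a black bar for the subunit's median and a red dashed line for the median of all 9826 genes tested. In CD3 against Unstimulated 54 are called higher and 0 lower (26 to 43 and 5 to 8 under other scalings); in CD3_CD28_ICOS against CD3 1 is called higher and 47 lower (2 to 3 and 33 to 40).

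**Figure D3:**
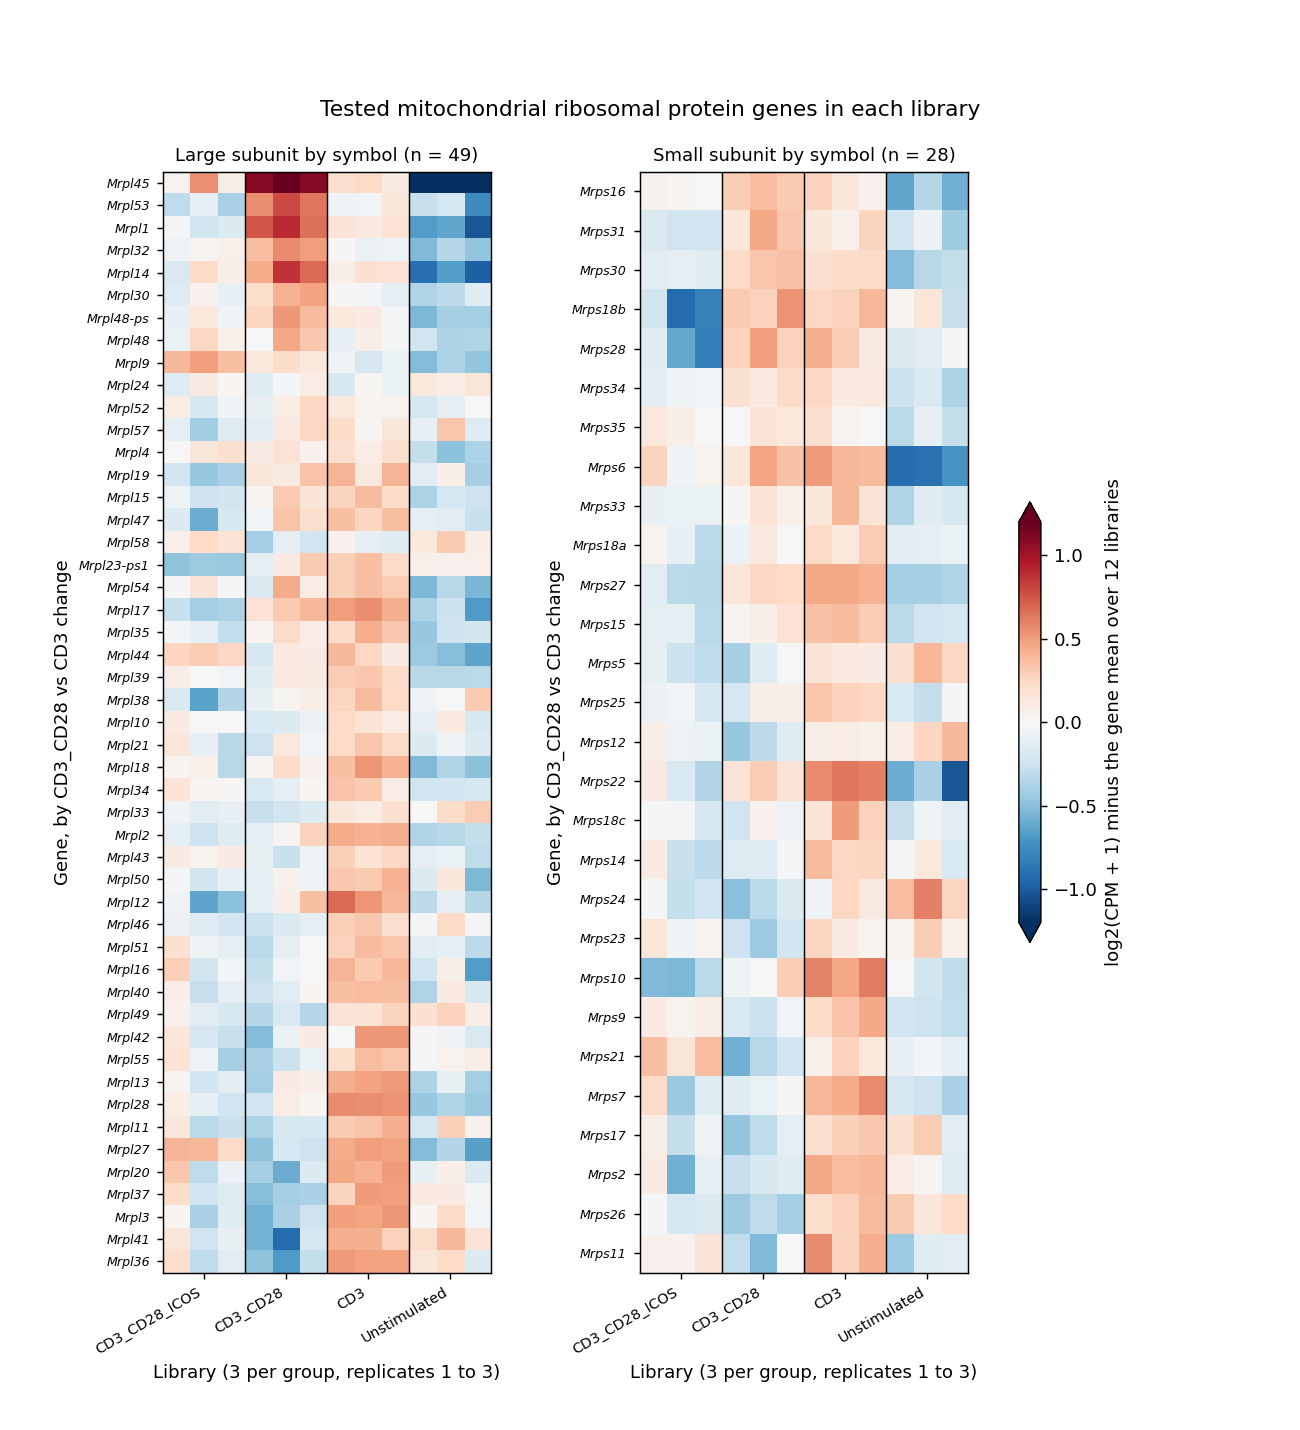
Level of each of the 77 tested members in each of the 12 libraries, as log2(CPM + 1) minus the gene's mean over the 12 libraries, with large subunit genes and small subunit genes in panels of their own, sorted by the change in CD3_CD28 against CD3. On the CPM scale 56 genes have their highest stimulated mean in CD3 (43 to 49 under other scalings), and there are 16 genes, Mrpl45 and Mrpl1 among them, whose highest stimulated mean is in CD3_CD28. The highest group was not counted over all genes tested.

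Mrpl45 changed most. Its product is a large subunit protein without a bacterial counterpart, which lies at the exit of the peptide tunnel and ties the mitoribosome to the inner membrane. The gene is on the plus strand at chr11:97315716-97329920 (mm10). It stood at 80.8, 116 and 83.3 CPM in CD3_CD28_ICOS, 170.2, 184 and 168 in CD3_CD28, 90.6, 92.8 and 84.7 in CD3 and 26.3, 27.1 and 25.5 CPM in Unstimulated libraries. All 9 stimulated libraries were far above the Unstimulated ones and the 3 CD3_CD28 libraries above all others, while CD3_CD28_ICOS and CD3 overlapped. The log2 fold change over Unstimulated was 1.77 ± 0.12 in CD3_CD28_ICOS (limma adjusted p = 2.75e-08), 2.68 ± 0.12 in CD3_CD28 (limma adjusted p = 2.78e-10) and 1.73 ± 0.12 in CD3 cells (limma adjusted p = 1.60e-08; ± is the SE here and below). Between stimulated groups it was 0.95 in CD3_CD28 against CD3 and -0.91 in CD3_CD28_ICOS against CD3_CD28, both called, and 0.04 in CD3_CD28_ICOS against CD3, not called. No annotated exon of another gene overlaps its exons.

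A small set of large subunit genes shared the peak in CD3_CD28 cells. Mrpl14, a core protein of the face that meets the small subunit (chr17:45686322-45698495, plus strand), had 18, 24.4 and 21.9 CPM in CD3_CD28_ICOS, 28.4, 38.5 and 33.6 in CD3_CD28, 21.7, 23.6 and 23.4 in CD3 and 10.5, 12.6 and 9.95 in Unstimulated libraries. The CD3_CD28 libraries were the 3 highest and the Unstimulated ones the 3 lowest. Its log2 fold change was 1.52 ± 0.14 in CD3_CD28 against Unstimulated (limma adjusted p = 2.57e-07) and 0.52 ± 0.14 against CD3 (limma adjusted p = 0.00514). Mrpl1, the protein of the mobile stalk beside the site where transfer RNA leaves, had 22.9, 19.4 and 20.5 CPM in CD3_CD28_ICOS, 39.4, 43.7 and 37.2 in CD3_CD28, 25.8, 25.1 and 26.2 in CD3 and 14.1, 14.6 and 10.8 in Unstimulated libraries. Again CD3_CD28 stood above every other library. It rose by 1.54 in CD3_CD28 against Unstimulated and by 0.62 against CD3, and fell by 0.91 in CD3_CD28_ICOS against CD3_CD28. Mrpl30, Mrpl32 and Mrpl53 also rose in CD3_CD28 against CD3, by 0.40, 0.52 and 0.64. Mrpl53 reached 10 CPM only in the CD3_CD28 libraries and CD3 replicate 3, so its rise there is no independent result. Mrpl53 shares 88% of its exon bases with Gm42688 on the same strand, so its reads may be split between the 2 genes, and its call in CD3 against Unstimulated (0.43) was lost without Unstimulated replicate 3 (0.26) or CD3 replicate 3 (0.38) and turned to -0.18 with quantile normalization. The remaining 2 of the 8 that rose in CD3_CD28 against CD3 were Mrpl9 (0.26) and the pseudogene Mrpl48-ps (0.32).

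Other large subunit genes had their lowest stimulated mean in CD3_CD28 cells. Mrpl36, one of the smallest core proteins, had 23.4, 16.1 and 18.2 CPM in CD3_CD28_ICOS, 14.1, 12.2 and 16.3 in CD3_CD28, 29.2, 28.6 and 28.6 in CD3 and 22.3, 23.9 and 17.9 in Unstimulated libraries. The CD3 libraries were the 3 highest, and CD3_CD28 lay below CD3 and Unstimulated with no overlap but reached into the range of CD3_CD28_ICOS. In CD3_CD28 against CD3 it fell by 0.98 (SE 0.15, limma adjusted p = 9.25e-05), the largest fall of any member there. Its rises in CD3 against Unstimulated (0.42) and in CD3_CD28_ICOS against CD3_CD28 (0.41) were fragile: the first was lost without Unstimulated replicate 3 (0.30) or CD3 replicate 1 (0.41), the second without CD3_CD28 replicate 1 (0.41) or 2 (0.31) or CD3_CD28_ICOS replicate 1 (0.26). Mrpl41 and Mrpl3, the second a core protein near the site of peptide bond formation, fell by 0.94 and 0.90 in CD3_CD28 against CD3. Mrpl37 and Mrpl27 fell by 0.86 and 0.79 in the same comparison. Mrpl27, whose bacterial counterpart reaches into the site of peptide bond formation, was at 15.2, 15.2 and 13.4 CPM in CD3_CD28_ICOS, 7.77, 9.56 and 9.30 in CD3_CD28, 15.7, 16.3 and 16.1 in CD3 and 7.53, 8.57 and 6.78 in Unstimulated libraries. It was near the same level in CD3_CD28 and Unstimulated cells and higher, without overlap, in the other 2 groups (0.66 ± 0.13 in CD3_CD28_ICOS against CD3_CD28, limma adjusted p = 4.61e-04). Mrpl27 reached 10 CPM only in CD3_CD28_ICOS and CD3 libraries. It was tested only through these groups, so its differences from the others are no independent result.

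The stalk that receives the elongation factors is formed by Mrpl10, Mrpl11 and Mrpl12, whose genes all had their highest stimulated mean in CD3 cells on the CPM scale. Whether the 3 differ in their changes was not tested. Mrpl12, which also binds the mitochondrial RNA polymerase, had 42.2, 27.6 and 30.5 CPM in CD3_CD28_ICOS, 39.8, 45.9 and 55.8 in CD3_CD28, 70.2, 62.9 and 57.3 in CD3 and 34.7, 39.9 and 33.9 in Unstimulated libraries. The 3 CD3 libraries were the highest, and the other groups overlapped. It rose by 0.79 in CD3 against Unstimulated (limma adjusted p = 4.29e-04) and fell by 0.92 in CD3_CD28_ICOS against CD3 (limma adjusted p = 3.52e-04). Its calls of 0.36 in CD3_CD28 against Unstimulated, -0.43 in CD3_CD28 against CD3 and -0.50 in CD3_CD28_ICOS against CD3_CD28 were fragile. The first was lost without Unstimulated replicate 1 or 3, CD3_CD28 replicate 2 or 3, any CD3 library or CD3_CD28_ICOS replicate 3 (0.24 to 0.38), the second without replicate 1 or 2 of CD3 or of CD3_CD28 (-0.43 to -0.32), and the third without CD3_CD28 replicate 3 or CD3_CD28_ICOS replicate 2 or 3 (-0.44 to -0.37). Mrpl10 had means of 49.5 ± 2.06 in CD3_CD28_ICOS, 43.9 ± 1.85 in CD3_CD28, 54.5 ± 2.91 in CD3 and 46.6 ± 5.30 CPM in Unstimulated cells (SD, n = 3 each), the flattest profile of the stalk genes. Its call in CD3 against Unstimulated, 0.23, was lost without Unstimulated replicate 1 or 3, CD3 replicate 1 or 2, CD3_CD28 replicate 2 or 3 or CD3_CD28_ICOS replicate 3 (0.16 to 0.23) and read -0.0026 with quantile normalization. Mrpl11 fell by 0.62 in CD3_CD28 and by 0.51 in CD3_CD28_ICOS, each against CD3, and was not called in the 3 comparisons with Unstimulated. Exons of Mrpl10 and Mrpl12 overlap Gm11574 and Gm16755 on the opposite strand over 14.1% and 13.1% of their bases, and the sources used here do not say whether reads were counted by strand.

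Mrpl9 was the only member called higher in all 6 comparisons. It is a core protein of the large subunit (chr3:94443318-94451130, plus strand). Its libraries read 117, 126 and 115 CPM in CD3_CD28_ICOS, 97.2, 104 and 97.4 in CD3_CD28, 86.4, 77.7 and 84.2 in CD3 and 62, 68.4 and 63.8 in Unstimulated. None of the groups overlapped, and it was also the only member called higher in CD3_CD28_ICOS against CD3. The log2 fold change was 0.87 ± 0.08 in CD3_CD28_ICOS against Unstimulated (limma adjusted p = 6.05e-07) and 0.52 ± 0.08 against CD3 (limma adjusted p = 1.82e-04). With quantile, median-of-ratios or upper quartile scaling it was no longer called in CD3 against Unstimulated or in CD3_CD28_ICOS against CD3_CD28, and without CD3 replicate 2 it was not called in CD3_CD28 against CD3 (0.22). Mrpl58, a peptidyl-tRNA hydrolase that frees stalled mitoribosomes, fell by 0.42 in CD3_CD28 against Unstimulated and rose by 0.41 in CD3_CD28_ICOS against CD3_CD28. Mrpl44, a protein with a fold like that of RNase III, rose against Unstimulated in CD3_CD28_ICOS (0.80), CD3_CD28 (0.53) and CD3 (0.77) and was not called between stimulated groups. Mrpl24, Mrpl52 and Mrpl57 were called in none of the 6 comparisons, and Mrpl24 kept within 62.2, 74.4 and 70.6 CPM in CD3_CD28_ICOS, 62.8, 68.7 and 73.7 in CD3_CD28, 60.6, 70.4 and 65.4 in CD3 and 76, 73.7 and 76.6 in Unstimulated libraries. Antisense to Mrpl24, Rrnad1 covers 26.3% of its exon bases.

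In the small subunit Mrps22 and Mrps6 rose most over unstimulated cells. Mrps22 (chr9:98588730-98601660, minus strand), a protein without a bacterial counterpart, had 19.8, 16 and 14.2 CPM in CD3_CD28_ICOS, 20.7, 22.8 and 20.7 in CD3_CD28, 27.7, 29.1 and 28.3 in CD3 and 11.8, 13.8 and 8.51 in Unstimulated libraries. Every stimulated library was above every Unstimulated one, with CD3 highest. It rose by 1.27 ± 0.16 in CD3 (limma adjusted p = 5.91e-06), by 0.88 in CD3_CD28 and by 0.53 in CD3_CD28_ICOS, the last not called with quantile normalization. Mrps6, a core protein of the platform of the small subunit, had 40.2, 32.3 and 34.3 CPM in CD3_CD28_ICOS, 36.9, 46.7 and 42.9 in CD3_CD28, 48, 44.4 and 43.7 in CD3 and 17.3, 17.4 and 20.1 in Unstimulated libraries. CD3_CD28 overlapped both other stimulated groups, and all 9 stimulated libraries lay clear of Unstimulated, with log2 fold changes of 0.92 in CD3_CD28_ICOS, 1.16 in CD3_CD28 and 1.27 in CD3. Its exons overlap those of Gm49711 and Slc5a3 on the same strand over 19.9% and 10.4% of their bases.

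The mammalian mitoribosome holds 3 relatives of bacterial S18 at different positions. Mrps18b had 16.6, 9.84 and 10.7 CPM in CD3_CD28_ICOS, 24.6, 24 and 29 in CD3_CD28, 23.5, 23.9 and 26.2 in CD3 and 20.05, 21.8 and 16 in Unstimulated libraries. CD3_CD28_ICOS replicate 1 lay above the lowest Unstimulated library, and the other 2 libraries of that group below all others. It fell by 1.03 in CD3_CD28_ICOS against CD3_CD28 (limma adjusted p = 1.38e-04), by 0.96 against CD3 (limma adjusted p = 5.08e-04) and by 0.62 against Unstimulated (limma adjusted p = 0.00615). Its rise of 0.41 in CD3_CD28 against Unstimulated was lost on leaving out any CD3 or CD3_CD28 library or Unstimulated replicate 1 or 3, where the value was 0.29 to 0.46. Gm16279 lies antisense to 30.5% of its exon bases. Mrps18a averaged 20.7 ± 2.71 in CD3_CD28_ICOS, 22.9 ± 1.59 in CD3_CD28, 26.5 ± 1.70 in CD3 and 20.8 ± 0.437 CPM in Unstimulated cells, and Mrps18c 16.1 ± 1.24, 16.1 ± 1.7, 21.5 ± 2.82 and 15.2 ± 1.21 CPM in the same order (SD, n = 3 each). Both were highest in CD3 cells: Mrps18a rose by 0.34 and Mrps18c by 0.47 against Unstimulated, the first call lost without CD3 replicate 3 (0.29). Mrps18c shares 23.2% of its exon bases with Gm43511 on the same strand. Whether the 3 differ from each other in these changes was not tested.

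Mrps10, a core protein of the head of the small subunit, had one of the widest ranges among the stimulated groups. Its libraries read 5.81, 5.76 and 6.84 CPM in CD3_CD28_ICOS, 8.44, 8.77 and 11.1 in CD3_CD28, 13.8, 12.5 and 14.1 in CD3 and 8.84, 7.39 and 6.95 in Unstimulated. The 3 stimulated groups did not overlap, with CD3_CD28_ICOS lowest and CD3 highest. It fell by 1.02 in CD3_CD28_ICOS against CD3 (SE 0.15, limma adjusted p = 1.10e-04), the largest fall of any member in that comparison. Mrps10 reached 10 CPM only in the CD3 libraries and CD3_CD28 replicate 3. It was thus tested only because it was high in CD3, and this fall is no independent result. Mrps28 fell by 0.88 in CD3_CD28_ICOS against CD3_CD28 and by 0.81 against CD3. It was tested only through its CD3_CD28 and CD3 libraries, so these falls are no independent result either. Mrps21 went the other way, with 42.3, 36.3 and 42.6 CPM in CD3_CD28_ICOS, 21.6, 25.8 and 27.7 in CD3_CD28, 34.2, 39.9 and 35.9 in CD3 and 30.4, 32.3 and 30.3 in Unstimulated libraries. CD3_CD28 held its 3 lowest values, and the rise in CD3_CD28_ICOS against CD3_CD28 was 0.67 ± 0.11 (limma adjusted p = 1.32e-04), the largest of any member.

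Some small subunit genes fell against unstimulated cells. Mrps24, a core protein at the channel where messenger RNA enters, had 17.1, 13.9 and 14.5 CPM in CD3_CD28_ICOS, 11.8, 13.6 and 15.1 in CD3_CD28, 16.5, 20.6 and 18.7 in CD3 and 22.6, 26.7 and 20.8 in Unstimulated libraries. All Unstimulated libraries were above all stimulated ones. It fell by 0.59 in CD3_CD28_ICOS and by 0.75 in CD3_CD28, each against Unstimulated; in CD3 the log2 fold change was -0.31 and was not called. Urgcp shares 15.4% of its exon bases on the same strand. Mrps5, another core protein of that channel, fell by 0.50 in CD3_CD28_ICOS and 0.46 in CD3_CD28 against Unstimulated, with -0.15 in CD3, not called. Mrps26 fell by 0.36 and 0.61 in the same 2 comparisons. Mrps12, the core protein of the decoding site, fell by 0.55 in CD3_CD28 against Unstimulated and was not called in CD3_CD28_ICOS (-0.27) or CD3 (-0.17). Of the large subunit by symbol, Mrpl38 fell by 0.48 and the pseudogene Mrpl23-ps1 by 0.51 in CD3_CD28_ICOS against Unstimulated, as did the small subunit gene Mrps28, by 0.42. The call of Mrps28 was lost without any Unstimulated library, CD3 replicate 2, CD3_CD28 replicate 3 or CD3_CD28_ICOS replicate 2 or 3 (-0.45 to -0.28). Mrps30, a protein of the large subunit that carries a small subunit symbol, rose by 0.25 in CD3_CD28_ICOS, 0.69 in CD3_CD28 and 0.59 in CD3 against Unstimulated, the first call lost without CD3_CD28_ICOS replicate 2 (0.24) or Unstimulated replicate 1 (0.18).

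**Figure D4:**
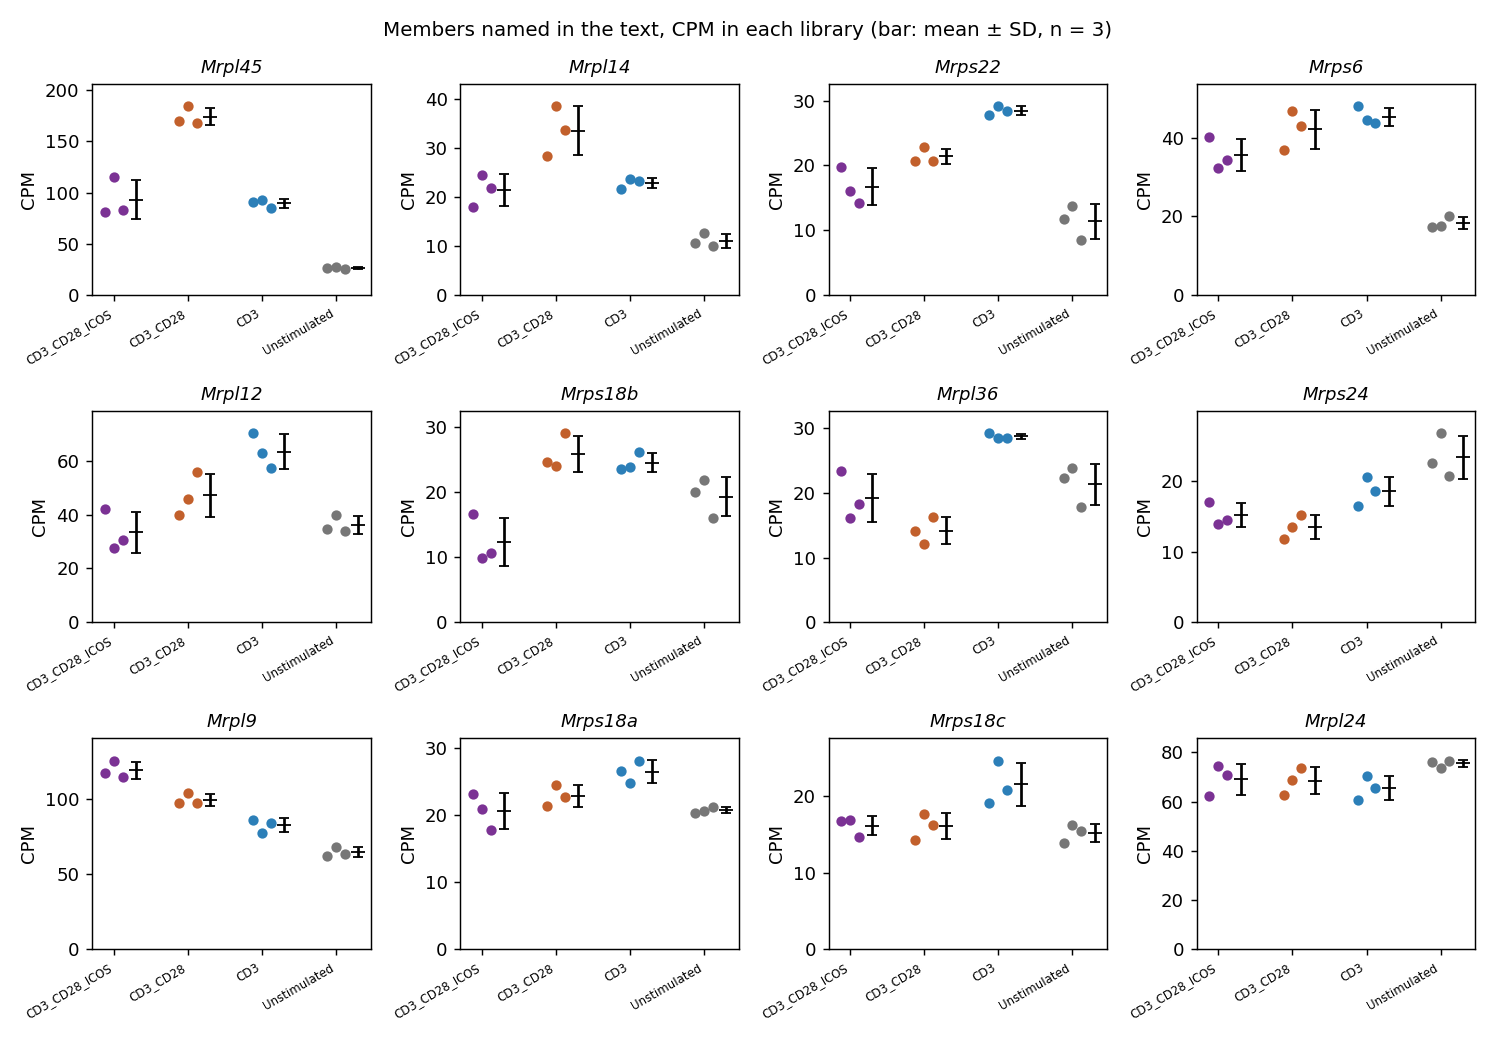
CPM of 12 members in each library, 1 point per library, with groups on the x axis and a bar for each group's mean; each panel has its own y axis from 0. Mrpl45, Mrpl14 and Mrps18b have their highest mean in CD3_CD28, with CD3_CD28_ICOS lowest of the stimulated groups for Mrpl14 and Mrps18b and CD3 for Mrpl45, Mrpl9 is highest in CD3_CD28_ICOS and lowest in Unstimulated, and Mrpl24 stays level.

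By structural class, the calls in CD3 against Unstimulated stand beside 43.6% higher and 26.3% lower among all genes tested. Of the large subunit proteins with a bacterial counterpart 24 of 28 tested rose, and of those specific to mitochondria 12 of 19. In the small subunit it was 10 of 16 with a counterpart and 7 of 10 specific ones. These classes place Mrps18a and Mrps30 with the large subunit proteins specific to mitochondria, and leave out Mrpl57 and Mrpl58. Mrps18a and Mrps18b count as specific although they are relatives of bacterial S18. In CD3_CD28 against CD3, where 18.7% of all genes were higher and 45.7% lower, the small subunit proteins with counterparts had 0 higher and 13 lower of 16 (0 and 13 at an unadjusted p under 0.05), those specific to mitochondria 0 higher and 5 lower of 10 (0 and 5). The class counts are given on the CPM scale only. Under the other scalings the members as a whole had 13 to 15 higher and 18 to 22 lower in CD3_CD28 against CD3, in place of 8 and 43. The 5 mitoribosomal proteins that go by other symbols all rose in CD3 against Unstimulated. Dap3, a GTP-binding protein of the small subunit, rose by 0.41, and Gadd45gip1, a large subunit protein, by 0.53. Of these 5, 1 was higher and 1 lower in CD3_CD28 against CD3. In CD3_CD28_ICOS against CD3_CD28, 1 was higher and 3 were lower (38.5% and 24.5% of all genes tested). Gadd45gip1 rose by 0.57 in CD3_CD28 against CD3 and fell by 1.02 in CD3_CD28_ICOS against CD3_CD28, while Ptcd3, a small subunit protein with RNA-binding repeats, fell by 0.98 in CD3_CD28 against CD3 and rose by 0.39 in CD3_CD28_ICOS against CD3_CD28.

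Levels can be compared between genes only per length, here as CPM per kilobase of the principal GENCODE transcript of the 75 tested members that are not pseudogenes. The median gene stood at 16.8 CPM per kilobase in CD3_CD28_ICOS, 17.0 in CD3_CD28, 21.8 in CD3 and 16.3 in Unstimulated cells. Mrps21 had the highest level per kilobase in CD3_CD28_ICOS (82.8), CD3 (75.2) and Unstimulated (63.6), and Mrpl30 in CD3_CD28 (83.5). Mrpl48 was the lowest in every group, at 2.52, 2.91, 2.35 and 1.85 CPM per kilobase in CD3_CD28_ICOS, CD3_CD28, CD3 and Unstimulated. Mrpl45 reached 38.4 CPM per kilobase in CD3_CD28_ICOS, 71.7 in CD3_CD28 and 36.8 in CD3 cells, against 10.8 in Unstimulated cells. In Unstimulated cells it thus lay below the median member and in each stimulated group above it. Although their products join in the same particle, the levels of the 75 genes ran from 2.52 to 82.8 CPM per kilobase in CD3_CD28_ICOS, 2.91 to 83.5 in CD3_CD28, 2.35 to 75.2 in CD3 and 1.85 to 63.6 in Unstimulated cells. Transcript choice sets these values for genes with long alternative ends, such as Mrpl48.

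The members' promoters were searched for letters they share. Promoters of 300 bases (250 before the transcription start and 50 from it on) were listed for 69 of the 83 members in RefSeq for GRCm38.p6, the assembly that mm10 corresponds to. Both strands were searched for 4 motifs that are known in promoters of nuclear genes for mitochondria or of growth genes. GCGCNTGCG, the core of the site of the factor NRF1, was found in 26.1% of the members' promoters, against 16.2% of 7402 promoters of all genes tested and 6.59% of all 27025 listed. CCGGAAG, bound by ETS family factors such as GABP, was found in 36.2%, against 21.8% of genes tested and 9.12% of all. AAGATGGCG, bound by YY1, was in 11.6%, against 3.88% and 1.49%, and the E-box CACGTG, which MYC binds, in 7.25%, against 10.8% and 7.24%. Longer forms had been searched first, with C added to the NRF1 motif and GC to the YY1 motif at the 3′ end. They were found in 18.8% of the members' promoters against 12.3% of genes tested for NRF1, and in 7.25% against 2.00% for YY1, so the shares depend on the form. Matches of the NRF1 motif on the 2 strands can overlap each other, as in the Mrpl9 promoter. A match is a stretch of letters and not a measured binding site.

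The promoters of 4 members are shown: Mrpl45, Mrpl14 and Mrpl9, which rose against Unstimulated in every stimulated group, and Mrpl53, which with Mrpl45 and Mrpl14 was highest in CD3_CD28. Mrpl53 passed the level tested only through its CD3_CD28 libraries, so its peak there is no independent result. Capitals mark matches of GCGCNTGCG, or of CCGGAAG in Mrpl53, on either strand. Mrpl45 has 3 separate matches, beginning 119 and 37 bases before the start and 15 after it (chr11:97315466-97315765, plus strand). Mrpl14 has 1, 5 bases after the start (chr17:45686099-45686398, plus strand), and Mrpl9 has 2 that overlap, 28 and 27 bases before it (chr3:94443086-94443385, plus strand). Mrpl53 has 2 ETS matches, 59 and 16 bases before the start (chr6:83108858-83109157, plus strand).
Mrpl45: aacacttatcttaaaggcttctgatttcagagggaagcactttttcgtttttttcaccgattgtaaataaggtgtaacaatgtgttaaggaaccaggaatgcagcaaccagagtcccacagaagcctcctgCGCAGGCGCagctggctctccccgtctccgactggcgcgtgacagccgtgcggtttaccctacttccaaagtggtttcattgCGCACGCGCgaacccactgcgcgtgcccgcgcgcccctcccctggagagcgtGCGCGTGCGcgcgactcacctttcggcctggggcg
Mrpl14: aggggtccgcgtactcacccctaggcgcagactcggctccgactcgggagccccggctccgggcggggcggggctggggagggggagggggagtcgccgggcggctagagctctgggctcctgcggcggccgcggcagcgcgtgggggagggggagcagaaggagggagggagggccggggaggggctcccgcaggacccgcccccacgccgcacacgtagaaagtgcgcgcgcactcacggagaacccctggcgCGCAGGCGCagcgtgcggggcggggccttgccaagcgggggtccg
Mrpl9: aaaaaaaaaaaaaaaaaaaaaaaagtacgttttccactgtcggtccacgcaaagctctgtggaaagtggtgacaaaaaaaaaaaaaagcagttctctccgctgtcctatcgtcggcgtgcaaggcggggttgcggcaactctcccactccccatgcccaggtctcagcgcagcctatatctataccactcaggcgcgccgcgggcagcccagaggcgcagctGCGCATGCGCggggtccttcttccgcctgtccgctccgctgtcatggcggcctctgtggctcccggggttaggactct
Mrpl53: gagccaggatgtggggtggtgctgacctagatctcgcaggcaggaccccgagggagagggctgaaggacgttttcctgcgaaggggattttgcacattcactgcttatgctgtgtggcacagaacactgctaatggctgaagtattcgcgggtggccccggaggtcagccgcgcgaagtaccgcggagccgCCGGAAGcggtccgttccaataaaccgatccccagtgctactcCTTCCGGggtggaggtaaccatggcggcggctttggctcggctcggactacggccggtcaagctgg

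Promoters without any of the 4 motifs included those of Mrpl1, Mrpl41 and Mrps6, so a match in this window was not shared by all members that rose or fell. The 17 tested members with the NRF1 motif had a median log2 fold change of 0.36 in CD3_CD28 against Unstimulated, with 10 called higher and 2 lower, and the 49 with a promoter but no match a median of 0.08, with 16 higher and 13 lower. In CD3_CD28 against CD3 the medians were -0.24 (5 higher, 8 lower) and -0.39 (2 higher, 34 lower). They were 0.24 and 0.04 in CD3_CD28_ICOS against Unstimulated and -0.16 and -0.37 in CD3_CD28_ICOS against CD3. In the other 2 comparisons the members with a match had the lower median, 0.40 with and 0.43 without in CD3 against Unstimulated and -0.0474 with and 0.0034 without in CD3_CD28_ICOS against CD3_CD28. Among all genes tested 36.1% were higher and 39.1% lower in CD3_CD28 against Unstimulated, and 18.7% and 45.7% in CD3_CD28 against CD3. With the longer NRF1 form the medians with and without a match were 0.53 (13 members) and 0.08 (53) in CD3_CD28 against Unstimulated, and -0.20 and -0.38 in CD3_CD28 against CD3. For the ETS motif the medians with and without a match were 0.10 and 0.16 in CD3_CD28 against Unstimulated. These are descriptions of the members listed, with no test.

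Several members have near-identical copies, which limits what their values mean. Mrpl23, a protein at the peptide exit, was nearly silent in the table, with 0.515, 0.449 and 1.98 CPM in CD3_CD28_ICOS, 0.747, 0.789 and 0.511 in CD3_CD28, 0.965, 1.55 and 1.33 in CD3 and 3.55, 2.23 and 2.82 in Unstimulated libraries. Its processed pseudogene Mrpl23-ps1 on chromosome 2 had 20.2, 21 and 20.8 CPM in CD3_CD28_ICOS, 26.6, 30.8 and 35.9 in CD3_CD28, 35.1, 37.1 and 33.9 in CD3 and 30.02, 29.7 and 29.98 in Unstimulated libraries. Over all 438 coding bases of Mrpl23 the pseudogene's transcript has no mismatch in GENCODE vM21, so reads from this stretch cannot be assigned to one of the 2 loci, and the level listed under the pseudogene may be that of Mrpl23. The first 90 coding bases of Mrpl23 on chromosome 7 and the stretch from base 18 to base 107 of the pseudogene's transcript on chromosome 2 are printed to show the identity.
Mrpl23: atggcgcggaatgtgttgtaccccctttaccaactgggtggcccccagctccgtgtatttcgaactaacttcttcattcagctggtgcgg
Mrpl23-ps1: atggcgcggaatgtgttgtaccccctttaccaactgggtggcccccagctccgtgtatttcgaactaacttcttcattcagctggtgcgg

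Mrpl48-ps is 98.1% identical to the coding bases of Mrpl48, with 12 mismatches in 633 and a longest identical run of 210 bases. The calls of these 2 genes are therefore uncertain as to locus; they ran alike against Unstimulated, with log2 fold changes of 0.44 and 0.40 in CD3_CD28_ICOS, 0.83 and 0.58 in CD3_CD28, and 0.52 and 0.31 in CD3 (Mrpl48 in CD3 not called). The call of Mrpl48 in CD3_CD28_ICOS was lost without Unstimulated replicate 2 or 3 or CD3_CD28_ICOS replicate 2 or 3 (0.32 to 0.41). Mrpl48 was at most 8.43 CPM in Unstimulated libraries, so it was tested only through stimulated groups. Mrps36, with a group mean of at most 5.18 CPM, has 2 copies of 99.3% and 99.0% identity. Mrpl22, which lines the peptide tunnel, averaged 5.91 ± 0.452 CPM in CD3_CD28_ICOS, 5.36 ± 0.332 in CD3_CD28, 6.27 ± 0.881 in CD3 and 5.27 ± 0.180 in Unstimulated cells (SD, n = 3 each) and was below the level tested in each. Overlaps of exons on the opposite strand were widest for Mrps25 (69.8% of its exon bases, with Nr2c2) and Mrps34 (63.4%, with Mapk8ip3, besides 37.0% with Nme3 on the same strand), and Mrpl46 and Mrps11 overlap each other over 173 bases; reads of such pairs cannot be told apart without strand.

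Genes around the mitoribosome were counted on lists of their own. Their counts stand beside the shares of all genes tested, which were 43.6% higher and 26.3% lower in CD3 against Unstimulated, 18.7% and 45.7% in CD3_CD28 against CD3, and 18.9% and 28.7% in CD3_CD28_ICOS against CD3. Of 15 tested translation factors of mitochondria 10 rose and 1 fell in CD3 against Unstimulated. Tsfm, Gfm1 and Tufm, elongation factors, rose by 0.75, 0.62 and 0.49, the initiation factor Mtif2 rose by 0.26, and Mtif3, another initiation factor, fell by 0.32. Tufm reached 10 CPM only in CD3 replicates 2 and 3 (10.5 and 10.3) and CD3_CD28 replicate 2 (11.4), against 6.92, 7.91 and 6.21 CPM in Unstimulated. It was thus tested only through groups where it was high, and its rise is no independent result. Of 24 tested genes of protein import into mitochondria 15 rose and 0 fell in that comparison (16 and 0 at an unadjusted p under 0.05), and 0 rose and 22 fell in CD3_CD28_ICOS against CD3. Among the import genes Hspa9, the chaperone that pulls proteins into the matrix, had means of 206 ± 52 in CD3_CD28_ICOS, 751 ± 42.9 in CD3_CD28, 428 ± 22.8 in CD3 and 257 ± 16.1 CPM in Unstimulated cells (SD, n = 3 each), and fell by 1.89 in CD3_CD28_ICOS against CD3_CD28. Assembly and rRNA modification factors were mixed, with 6 higher and 2 lower of 21 in CD3 against Unstimulated and 1 higher and 10 lower in CD3_CD28 against CD3. Malsu1, which docks on Mrpl14 during assembly of the large subunit, rose against Unstimulated by 0.92 in CD3_CD28_ICOS, 1.16 in CD3_CD28 and 1.10 in CD3. Mterf4, which binds mitochondrial ribosomal RNA, rose by 1.03, 1.25 and 1.04 in the same 3 comparisons. In Unstimulated libraries Malsu1 and Mterf4 were below 10 CPM (at most 9.98 and 9.96). Both were thus tested only through stimulated groups, and their rises are no independent result.

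Genes of mitochondrial transcription and RNA processing were mixed, with 6 higher and 2 lower of 11 in CD3 against Unstimulated and 2 higher and 4 lower in CD3_CD28 against CD3. Polrmt, the mitochondrial RNA polymerase, fell by 0.69 in CD3_CD28_ICOS, by 1.09 in CD3_CD28 and by 0.35 in CD3 against Unstimulated. Tfam, which packages mitochondrial DNA and starts its transcription, fell by 0.57 in CD3_CD28 against Unstimulated; its log2 fold changes in CD3_CD28_ICOS (-0.15) and CD3 (0.19) were not called. Lrpprc, which keeps mitochondrial messages stable, fell by 0.52 in CD3_CD28_ICOS and 0.76 in CD3_CD28. Prorp, which cuts transfer RNA out of mitochondrial transcripts, rose by 1.17 in CD3_CD28_ICOS, 1.36 in CD3_CD28 and 1.51 in CD3, each against Unstimulated. Elac2, which trims the other end of those transfer RNAs, was not called in these 3 comparisons (-0.13, -0.11 and 0.26). Of 7 tested genes of mitochondrial DNA replication 2 rose and 2 fell in CD3_CD28_ICOS, 1 rose and 4 fell in CD3_CD28, and 2 rose and 3 fell in CD3, each against Unstimulated. Mgme1, a nuclease on that list, rose by 0.84 in CD3_CD28_ICOS, 1.33 in CD3_CD28 and 1.53 in CD3. In Unstimulated libraries Prorp and Mgme1 were below 10 CPM (at most 8.54 and 6.48). Both were thus tested only through stimulated groups, and their rises are no independent result. Among all genes tested 35.6% were higher and 23.7% lower in CD3_CD28_ICOS, 36.1% and 39.1% in CD3_CD28 and 43.6% and 26.3% in CD3, each against Unstimulated. In CD3_CD28 against CD3 the shares were 18.7% and 45.7%. The RNAs of the mitoribosome itself are mitochondrial and were not analysed here.

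Among regulators of nuclear genes for mitochondria, Myc and Nrf1 took different courses. Myc, a growth factor-induced transcription factor, averaged 117 ± 19.3 in CD3_CD28_ICOS, 294 ± 32.8 in CD3_CD28, 247 ± 14.9 in CD3 and 108 ± 13.7 CPM in Unstimulated cells (SD, n = 3 each). It rose by 1.44 in CD3_CD28 and 1.2 in CD3 against Unstimulated and was not called in CD3_CD28_ICOS (0.11). C1qbp, a matrix protein needed for mitochondrial translation, rose by 0.84 in CD3_CD28 and 1.11 in CD3, with 0.03, not called, in CD3_CD28_ICOS. Nrf1 averaged 54.8 ± 3.14, 35.5 ± 5.59, 66.7 ± 3.76 and 59.6 ± 0.390 CPM in CD3_CD28_ICOS, CD3_CD28, CD3 and Unstimulated cells (SD, n = 3 each) and fell by 0.74 in CD3_CD28 against Unstimulated. Gabpa, the DNA-binding part of GABP, fell by 0.28 in CD3_CD28 and rose by 0.31 in CD3_CD28_ICOS and 0.22 in CD3. The coactivators Pprc1 and Ppargc1b fell by 1.35 and 1.14 in CD3_CD28_ICOS against Unstimulated, and Ppargc1b also in CD3_CD28, by 1.55, and in CD3, by 0.50. Ppargc1b reached 10 CPM only in the Unstimulated libraries (11.1, 10.5 and 12.3 CPM), so it was tested only because it was high there. Its means were 4.60 in CD3_CD28_ICOS, 3.25 in CD3_CD28 and 7.70 CPM in CD3. These are RNA levels of the regulators, and no link to the members was tested.

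Set beside the mitochondrial list, the cytosolic ribosomal protein genes gave 19 higher and 20 lower of 73 tested in CD3 against Unstimulated and 39 higher and 3 lower in CD3_CD28 against CD3, where the mitochondrial ones gave 8 higher and 43 lower of 77. In CD3_CD28_ICOS against CD3_CD28 the cytosolic ones gave 1 higher and 31 lower. Respiratory chain genes encoded in the nucleus gave 47 higher and 2 lower of 67 in CD3 against Unstimulated and 4 higher and 35 lower in CD3_CD28 against CD3. In CD3_CD28_ICOS against CD3_CD28, respiratory chain genes gave 20 higher and 7 lower and the mitoribosomal genes 10 higher and 23 lower. Among all genes tested 43.6% were higher and 26.3% lower in CD3 against Unstimulated, and 18.7% and 45.7% in CD3_CD28 against CD3. In CD3_CD28_ICOS against CD3_CD28 the shares of all genes were 38.5% and 24.5%. The share of respiratory chain genes called higher there, 29.9%, was below that of all genes. Whether the lists differ was not tested.

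**Figure D5:**
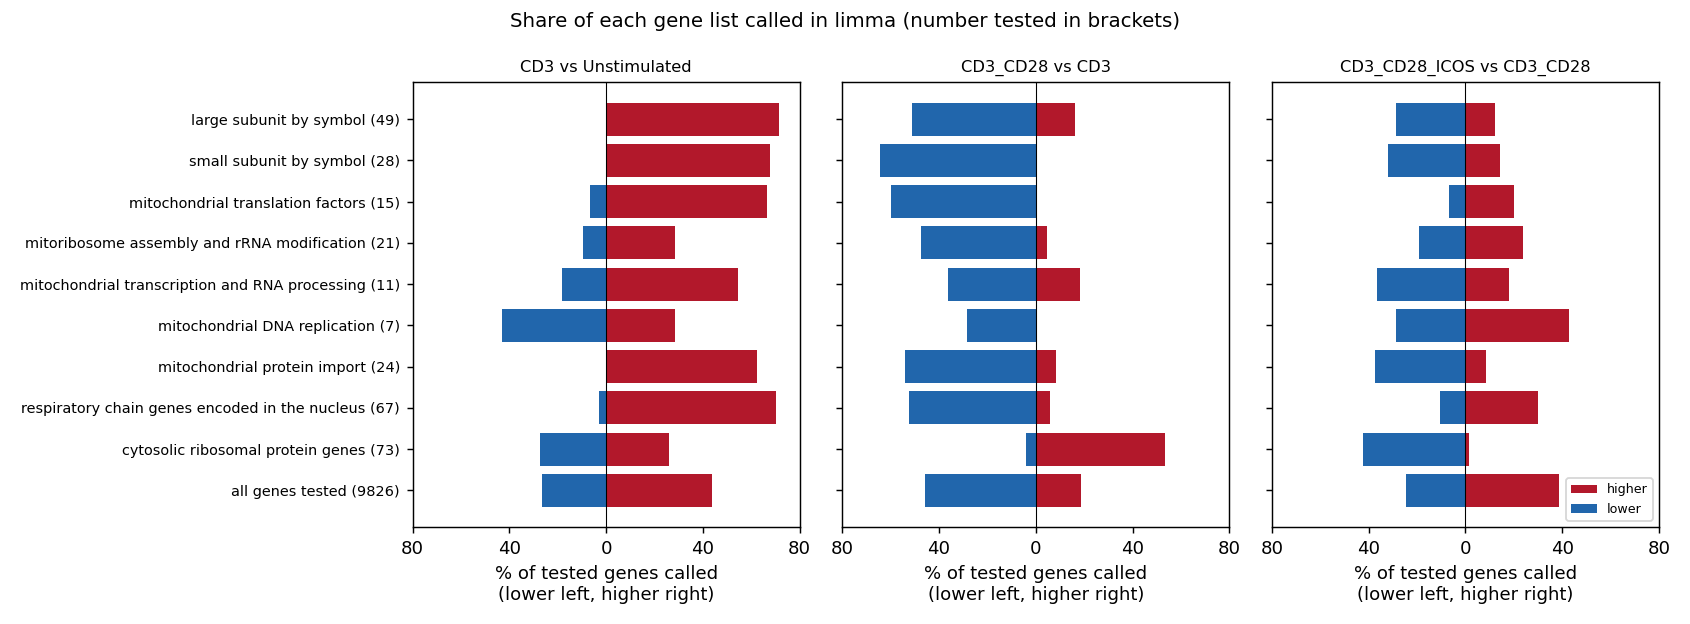
Percent of the tested genes of each list called higher (right of 0) or lower (left of 0) by limma, in 3 panels for CD3 against Unstimulated, for CD3_CD28 against CD3 and for CD3_CD28_ICOS against CD3_CD28, with all 9826 genes tested for comparison. The large and small subunit genes have no lower call in CD3 against Unstimulated on the CPM scale (5 to 8 in all under other scalings), and cytosolic ribosomal protein genes go the other way in CD3_CD28 against CD3 (39 of 73 higher).

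The authors' deposited table of their own comparisons called fewer genes throughout. At a false discovery rate under 0.05 the authors' deposited table has 16 members higher and 0 lower in CD3 against Unstimulated (16.9% and 9.16% of all genes listed), 10 higher and 0 lower in CD3_CD28 (15.9% and 16.9%) and 4 higher and 0 lower in CD3_CD28_ICOS (12.4% and 5.73%). Between stimulated groups the authors' deposited table has 1 member higher and 2 lower in CD3_CD28 against CD3 (5.14% and 11.8% of all genes listed; that table's sign, which ran the other way, was turned), 0 and 3 in CD3_CD28_ICOS against CD3_CD28 (12.6% and 6.89%) and 0 and 1 in CD3_CD28_ICOS against CD3 (4.07% and 4.60%). For Mrpl45 the authors' deposited table gives log2 ratios over Unstimulated of 1.82 in CD3_CD28_ICOS, 2.73 in CD3_CD28 and 1.76 in CD3.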

How the data were processed

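RNA from primary mouse CD4+ T cells was sequenced paired-end after extraction with a column kit, per the labels' protocols, in 12 libraries of 4 groups taken from the sample titles. Partek version 10, DESeq2 and mm10 are named in the submitters' processing notes; aligner, counter, annotation and strand setting were not given in the sources used here. The authors deposited CPM, reads per 1e6 assigned reads, with 1e-04 added to every cell, as found from the values. The design had assumed a normalized unit not yet known, and its log-scale test was kept. CPM is not corrected for gene length, and abundant genes in 1 library depress the rest of it. Among values up to 1.2 CPM, 76.2 to 81.1% were whole multiples of the CPM of 1 read within 0.02 of it, so whole reads were not recovered and no count test was run. The authors also deposited p-values, false discovery rates and log2 ratios for 6 comparisons of their own, per the file headers. All per-sample columns matched a label and 0 were left unused.

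The 9826 genes that reached 10 CPM in at least 3 libraries were tested on log2(CPM + 1) with limma 3.58.1 (R 4.3.3), all 12 libraries in one fit with group means, trend and robust options, two-sided, and Benjamini-Hochberg adjustment over all genes tested at 0.05. The log2(CPM + 1) scale understates changes of low genes. The F test used the 9 stimulated libraries. The fit was tested on simulated data. SDs are over 3 libraries and SEs are from limma. The members and all gene lists were chosen with earlier results of these data known. Genes named are, per comparison, the 3 members with the largest rise and the 3 with the largest fall among those called, up to 6 called against the majority, the 4 with the widest range among stimulated groups, the 3 with the highest and the 3 with the lowest mean CPM, all below the level tested, and a fixed set (the S18 relatives, the stalk genes, Mrps30, Mrps36, Mrps12, Mrps5, Mrpl44, Mrpl45); likewise the most changed genes of each other list. Mrpl48-ps, Mrpl52, Mrpl57 and genes with copies or overlaps were named after their values were seen. Gene coordinates are the authors' (mm10), with ends moved 1 base to match GENCODE vM21, from which transcripts were taken. Promoters are from RefSeq for GRCm38.p6 (Python 3.11.15). The NRF1 and YY1 motifs were shortened to 9 letters, to a form that could be printed, after values of the longer forms had been seen; both are given. Alternatives were other pseudocounts, filters, scalings, samples in the fit, moderation, member list, a replicate block and leaving out libraries. Same-numbered libraries of different groups had correlated deviations in 6 of 18 pairs (over 0.1), against 3 of the 36 other pairs. No label pairs libraries by number, so the main fit did not, and the replicate block is given as an alternative. Whether the numbers mark shared batches was not tested.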

Additional observations from a re-analysis of the deposited data

How the results depend on the processing

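Counts of members called moved with scaling and with single libraries. With quantile normalization, median-of-ratios and upper quartile scaling (the last chosen after seeing the data), in that order, the members were 26, 43 and 40 higher and 8, 5 and 5 lower in CD3 against Unstimulated (54 and 0 as reported), 14, 17 and 17 higher and 24, 18 and 18 lower in CD3_CD28_ICOS against Unstimulated (23 and 9), 14, 15 and 13 higher and 18, 20 and 22 lower in CD3_CD28 against CD3 (8 and 43), 6, 3 and 5 higher in CD3_CD28_ICOS against CD3_CD28 (10), and 3, 2 and 2 higher in CD3_CD28_ICOS against CD3 (1). The lower calls in CD3 against Unstimulated were 1 with a filter of 1 CPM, with no filter, and without trend and robust estimation, 2 with only the 2 groups compared or without the 2 doubted libraries, and 3 without the ribosomal RNA gene. With only the 2 groups compared, CD3_CD28_ICOS against CD3_CD28 gave 6 higher. Summed CPM of large subunit genes in CD3 was 1672 with median-of-ratios and 1846 without the ribosomal RNA gene; of small subunit genes, 880.3 and 972 in CD3 under these settings and 845 in CD3_CD28 with median-of-ratios. With the 5 other symbols added and pseudogenes and Mrps36 left out, small subunit sums were 942 in CD3_CD28_ICOS, 1015 in CD3_CD28, 1203 in CD3 and 891 CPM in Unstimulated, and small over large ratios 0.629, 0.602, 0.664 and 0.695 in the same order. Leaving out 1 library at a time gave 48 to 58 higher and 0 to 2 lower in CD3 against Unstimulated, 28 to 35 and 12 to 17 in CD3_CD28 against Unstimulated, 18 to 24 and 6 to 10 in CD3_CD28_ICOS against Unstimulated, 6 to 9 and 29 to 44 in CD3_CD28 against CD3, 5 to 13 and 19 to 25 in CD3_CD28_ICOS against CD3_CD28, 1 to 1 and 31 to 48 in CD3_CD28_ICOS against CD3, and 55 to 67 in the F test. In the same way the large subunit sums were 1472 to 1528 in CD3_CD28_ICOS, 1633 to 1736 in CD3_CD28, 1812 to 1829 in CD3, 1249 to 1318 in Unstimulated, the small subunit sums 716 to 762 in CD3_CD28_ICOS, 774 to 819 in CD3_CD28, 956 to 959 in CD3, 686 to 715 in Unstimulated, and the ratios 0.486 to 0.506 in CD3_CD28_ICOS, 0.471 to 0.483 in CD3_CD28, 0.524 to 0.529 in CD3, 0.543 to 0.549 in Unstimulated.

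The replicate block gave, as higher and lower, 53 and 0 in CD3 against Unstimulated, 31 and 14 in CD3_CD28 against Unstimulated, 22 and 9 in CD3_CD28_ICOS against Unstimulated, 8 and 42 in CD3_CD28 against CD3, 10 and 24 in CD3_CD28_ICOS against CD3_CD28, 1 and 42 in CD3_CD28_ICOS against CD3, and 63 in the F test. It lost 5 calls of named members. Correlations of deviations were -0.1 to 0.408 for same-numbered libraries and -0.329 to 0.326 for the other 36 pairs. Over 128 fold changes of named members, 2852 values under an alternative kept direction and call, 218 lost the call and 2 reversed: in CD3 against Unstimulated with quantile normalization Mrpl10 read -0.0026 and Mrpl53 -0.18. The cause of these shifts was not tested. Depth is estimated, not given, and 3 libraries a group limit what small changes can be called.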
